A study of Homo sapiens with 6 samples.

Results

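The 10 genes described here belong to the Notch pathway and are 4 ligands (JAG1, JAG2, DLL1 and DLL4), 3 receptors (NOTCH1, NOTCH2 and NOTCH3) and 3 targets (HES1, HEY1 and SOX9). They were taken by gene symbol from a deposited table of 29908 human genes, and each was found in it. The table holds 6 RNA sequencing libraries of Hep3B, an established human hepatocellular carcinoma cell line. The 3 Hep3B-KD libraries came from cells infected with lentivirus carrying a short hairpin RNA against DAGLA (shDAGLA), the gene of diacylglycerol lipase alpha, which makes the endocannabinoid 2-arachidonoylglycerol. The 3 Hep3B-Con libraries came from cells infected with control lentivirus (shControl), which the series' design text describes as an empty vector. Both populations were selected with puromycin. The supplement lists 1 hairpin sequence against DAGLA, so an effect of silencing and an effect of this hairpin cannot be told apart in these libraries.

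Notch signalling passes messages between touching cells. Ligands of the Jagged and Delta-like families on the sending cell bind Notch receptors on the neighbour, the receptor is cut by an ADAM protease and then by gamma-secretase, and the freed intracellular domain joins RBPJ and a Mastermind protein in the nucleus to switch on targets such as the HES and HEY repressors. In the developing liver the pathway, with JAG1 and NOTCH2 at its centre, steers hepatoblasts towards the bile duct lineage, which the transcription factor SOX9 marks. In liver cancer it has been linked to both growth and loss of the hepatocyte state.

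The values are FPKM, reads scaled to gene length and library size. The length counts every annotated exon of a gene, whether or not its main transcript holds it. Levels of different genes can therefore be set side by side only roughly, whereas the ratio of a gene between the groups does not depend on its length. Every value above 0 corresponded to a whole number of reads, within 0.01 of a read, and the 6 libraries held between 15861039 and 17572714 such reads. The test covered 14221 genes whose mean over the libraries reached 0.5 FPKM, on the scale log2(FPKM + 0.1), which understates changes of low genes. Positive log2 fold changes mean a higher level in Hep3B-KD, and adjusted p-values are limma's, corrected over all genes tested. Differences between the populations were widespread: 59.9% of the genes tested had an adjusted p under 0.05, with 36.1% higher and 23.8% lower in Hep3B-KD, and 8.83% passed with a fold change of at least 2. The median log2 fold change over all genes tested was 0.109, and of the genes that passed 60.2% were higher, against 48.5% after centring each library on its median and 52.3% after quantile normalization. DAGLA was measured at 9.42, 9.40 and 9.02 FPKM in Hep3B-Con and at 4.62, 4.46 and 4.78 in Hep3B-KD. Its groups lay far apart, with a log2 fold change of -0.99 (SE, the standard error, 0.0441, adjusted p = 5.25e-06).

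The libraries carried the RNA of a hepatoma line. All 8 hepatocyte or hepatoma markers passed the test, 7 higher in Hep3B-KD and HNF4A lower, and their summed level ran from 2699 to 2745 FPKM in Hep3B-Con and from 4390 to 4413 in Hep3B-KD. Of 10 biliary epithelium markers 8 were tested, 6 higher and 2 lower, with KRT7 among the lower and with sums of 720.5 to 756.3 and of 955.2 to 980.8 FPKM. The endothelial markers, of interest because DLL4, NOTCH4 and HEY1 are prominent in vessels, did not exceed 0.385 FPKM in any library, and VWF, KDR, CDH5 and TEK had between 0 and 2 reads. Fibroblast and stellate cell markers summed to 9.28 to 10.2 FPKM in Hep3B-Con and 5.48 to 5.94 in Hep3B-KD, and 3 of 3 tested were lower. Of the leukocyte markers, PTPRC stayed at or under 6 reads, and the summed level of 4 found in the table ran from 2.83 to 4.47 FPKM and from 4.0 to 4.83. What these shifts contribute to the values below was not tested, and in such bulk RNA fewer cells of a kind and less RNA per cell cannot be told apart.

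Of the 10 genes, 8 passed the filter on low values and 6 of these had an adjusted p under 0.05, which is 75% against the 59.9% of all genes tested. JAG1, NOTCH2, NOTCH3 and SOX9 rose in Hep3B-KD, whereas JAG2 and HES1 fell. Their changes were moderate: the largest, that of NOTCH2, was 0.91 on the log2 scale. The values of the groups did not overlap in 7 of the 8 genes tested, beside 66.9% of all genes tested, and among the genes under the filter they did not overlap for HEY1. The median log2 fold change of the 8 genes tested was 0.22, beside 0.109 for all genes.

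**Figure D1:**
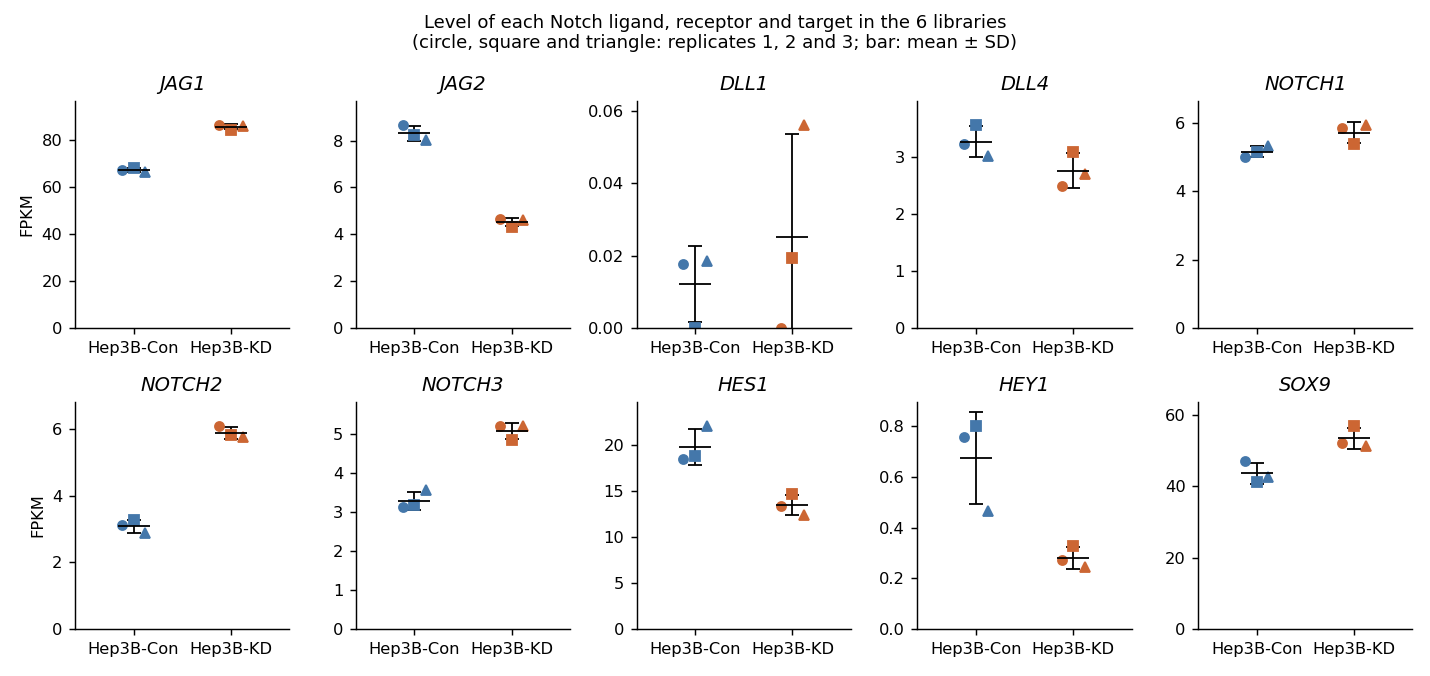
FPKM of the 10 genes (y axes, each from 0) in the 3 Hep3B-Con (blue) and 3 Hep3B-KD (orange) libraries, with symbols for replicates 1 to 3 and bars for the mean and SD. The groups are separate for every gene except DLL1, which stayed at or under 0.056 FPKM, and DLL4.

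Among the ligands, JAG1 dominated. JAG1, the Jagged ligand mutated in Alagille syndrome, is on chromosome 20 (10637684 to 10673999, minus strand, GRCh38). It measured 67.6, 68.1 and 66.6 FPKM in Hep3B-Con and 86.5, 84.6 and 86.3 in Hep3B-KD. Each Hep3B-KD library lay above each Hep3B-Con library, and the values within a group were close together. On the log2 scale JAG1 rose by 0.35 (SE 0.0187, adjusted p = 1.10e-05), a ratio of 1.27 between the means of 85.8 ± 1.06 and 67.4 ± 0.739 (SD, n = 3 each), from 10314 to 13320 reads per library. Set against the median of all genes, the rise was 0.24.

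JAG2, the second Jagged ligand, moved the other way. It is on chromosome 14 (105140981 to 105168824, minus strand). Its level was 8.66, 8.26 and 8.02 FPKM in Hep3B-Con and 4.63, 4.31 and 4.63 in Hep3B-KD, with every Hep3B-KD library far below the controls. On the log2 scale this was a change of -0.86 (SE 0.0504, adjusted p = 1.54e-05), and the Hep3B-Con mean was 1.84 times that of Hep3B-KD. JAG2 is among the genes that the study displayed from these same libraries, so its fall is not independent evidence of a direction.

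The Delta-like ligands were low. DLL4, best known from sprouting vessels, is on chromosome 15 (40929333 to 40939073, plus strand). It had 3.23, 3.55 and 3.02 FPKM in Hep3B-Con and 2.49, 3.09 and 2.70 in Hep3B-KD. The groups overlapped, since Hep3B-KD replicate 2 exceeded Hep3B-Con replicate 3. A log2 fold change of -0.24 did not pass (95% interval -0.48 to 0.00, adjusted p = 0.0798). It passed after median centring (-0.34, adjusted p = 0.0236) and without Hep3B-KD replicate 2 (-0.32, adjusted p = 0.0324).

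DLL1 was barely detected. The gene is on chromosome 6 (170282206 to 170306565, minus strand), with FAM120B on the opposite strand at 9.04 to 10.3 FPKM. Its read counts were 1, 0 and 1 in Hep3B-Con and 0, 1 and 3 in Hep3B-KD. No library held more than the 3 reads taken as the floor, so no fold change is given and a difference was not detectable at this depth.

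With the Jagged genes moving apart, the make-up of the ligand RNA differed between the groups. The summed FPKM of the 4 ligands was 79.5, 79.9 and 77.7 in Hep3B-Con and 93.7, 92.0 and 93.7 in Hep3B-KD. JAG1 made up 85.3% ± 0.388 of this sum in Hep3B-Con and 92.2% ± 0.229 in Hep3B-KD (SD, n = 3). The share of JAG2 was 10.5% ± 0.327 and 4.86% ± 0.148, and that of DLL4 was 4.13% ± 0.288 and 2.96% ± 0.356. For each of these shares the groups did not overlap, and the two-sided exact permutation test gave 0.1, the smallest p that 3 libraries against 3 allow.

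The guide strand of a hairpin can also pair, through its seed at bases 2 to 8, with 3' UTRs of other transcripts, and JAG2 and DLL4 hold such matches. The hairpin target and the complementary guide strand are shown with the seed and its match in capitals, followed by the places where the match occurs in the 3' UTRs of JAG2 and DLL4, both written along the transcript.
hairpin target in DAGLA: gcgacaacaagGCCTTCAa
guide strand: tTGAAGGCcttgttgtcgc
JAG2 3' UTR, chr14:105141881-105141903, minus strand: tgacaagtGCCTTCAcacagacc
DLL4 3' UTR, chr15:40938303-40938325, plus strand: cagtagtgGCCTTCAgggggctc

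Coordinates and sequence of these sites are from GENCODE release 29 on GRCh38. In JAG2 the match begins at base 800 of a 3' UTR of 1714 bases, and in DLL4 at base 277 of 1039. NOTCH2 holds a match too, but in the 3' UTR of a short transcript and not in that of its full-length transcript. JAG1, DLL1, NOTCH1, NOTCH3, HES1, HEY1 and SOX9 hold none in the longest annotated 3' UTR. Among all genes tested that have an annotated 3' UTR, 1627 of 11188 (14.5%) hold a match. Of the 3 genes with a match, JAG2 fell, NOTCH2 rose and DLL4 did not pass. Among the 63 other pathway genes described below, 8 hold a match. They include ADAM17, KAT2A, NRARP, POFUT1 and POGLUT1, which fell, and ADAM10, which rose. A part of the guide in any of these values was not tested.

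Of the receptors, NOTCH2 and NOTCH3 rose and NOTCH1 did not pass the test. NOTCH2, the receptor of bile duct development, is on chromosome 1 (119911553 to 120069626, minus strand). It measured 3.12, 3.27 and 2.88 FPKM in Hep3B-Con and 6.10, 5.83 and 5.75 in Hep3B-KD. The groups were separated by more than the whole spread within either. NOTCH2 rose by 0.91 on the log2 scale (SE 0.0613, adjusted p = 2.82e-05), a ratio of 1.91, from 807 to 1625 reads per library. Reads of NOTCH2 can be shared with its partial copies, so its level is less certain than the others; the copy NOTCH2NLA had 0.125 to 0.342 FPKM.

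NOTCH3, a receptor typical of vascular smooth muscle that is also found in liver tumours, is on chromosome 19 (15159038 to 15200981, minus strand). Its level was 3.14, 3.17 and 3.55 FPKM in Hep3B-Con and 5.2, 4.84 and 5.2 in Hep3B-KD, again with no overlap. NOTCH3 rose by 0.62 on the log2 scale (SE 0.0667, adjusted p = 0.000252), a ratio of 1.55.

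NOTCH1, on chromosome 9 (136494433 to 136545786, minus strand), had the highest FPKM of the receptors in the control cells. Its values were 4.98, 5.15 and 5.32 FPKM in Hep3B-Con and 5.83, 5.36 and 5.92 in Hep3B-KD. The groups did not overlap, but Hep3B-KD replicate 2 stood only just above the highest control. The log2 fold change of 0.14 (95% interval 0.01 to 0.27) did not pass (adjusted p = 0.0589), and it differed from the median of all genes by 0.03. Without Hep3B-KD replicate 2 it passed at 0.19 (adjusted p = 0.0274), while quantile normalization gave 0.0038 (adjusted p = 0.961).

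The summed FPKM of the 3 receptors was 11.5 ± 0.264 in Hep3B-Con and 16.7 ± 0.574 in Hep3B-KD (SD, n = 3). NOTCH1 accounted for 44.7% ± 0.50 of it in Hep3B-Con and 34.2% ± 0.830 in Hep3B-KD, and NOTCH2 for 26.8% ± 2.00 and 35.3% ± 1.16. The share of NOTCH3 was 28.5% ± 1.52 and 30.5% ± 0.330. The shares of NOTCH1 and NOTCH2 did not overlap between the groups (exact permutation p = 0.1, the smallest possible), whereas those of NOTCH3 did (exact permutation p = 0.2). By FPKM NOTCH1 thus led the receptors in Hep3B-Con, and in Hep3B-KD the ranges of NOTCH1 and NOTCH2 overlapped. The exon lengths behind these values were 10377 bases for NOTCH1, 16807 for NOTCH2 and 9394 for NOTCH3. NOTCH2 had 807 to 956 reads in Hep3B-Con and 1573 to 1625 in Hep3B-KD, beside 909 to 929 and 894 to 1020 for NOTCH1. The shares and the order of the receptors depend on the lengths used.

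Ratios of 2 related genes within a library, taken on FPKM + 0.1, depend little on how libraries are scaled to each other, and 5 pairs were compared in this way. The log2 ratio of JAG1 over JAG2 was 2.95, 3.03 and 3.04 in Hep3B-Con and 4.19, 4.26 and 4.19 in Hep3B-KD. This is a difference of 1.21, from about 8.03 to 18.6 times as much JAG1 as JAG2. The log2 ratio of NOTCH2 over NOTCH1 went from a mean of -0.72 ± 0.12 to 0.05 ± 0.08, that of NOTCH3 over NOTCH1 from -0.64 ± 0.06 to -0.16 ± 0.02, and that of NOTCH2 over NOTCH3 from -0.08 ± 0.18 to 0.21 ± 0.06 (SD, n = 3). The difference for NOTCH2 over NOTCH3 was 0.29, and 0.19 without Hep3B-Con replicate 3, which at -0.29 lay apart from the other controls at -0.01 and 0.05. These 4 ratios did not overlap between the groups, in each case with an exact permutation p of 0.1, the smallest possible, and 0.125 after adjustment over the 5 pairs. The ratio of HES1 over HEY1 overlapped, at 4.44, 4.39 and 5.29 against 5.17, 5.11 and 5.19 (exact permutation p = 0.4, adjusted 0.4).

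**Figure D2:**
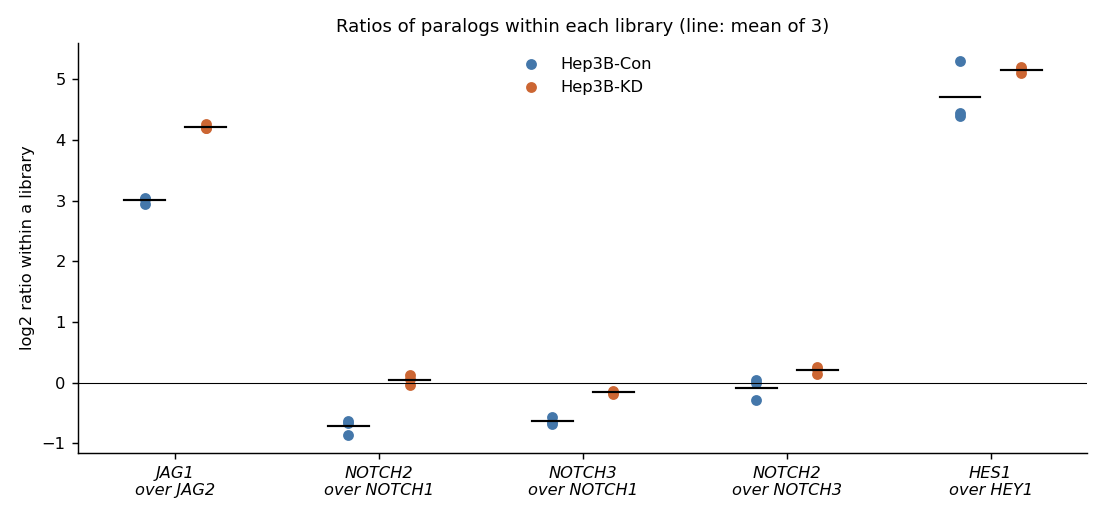
Log2 ratio of 2 related genes within a library (y axis) for 5 pairs (x axis), with a point per library, Hep3B-Con in blue and Hep3B-KD in orange, and a line at the mean of 3. The JAG1 over JAG2 ratio has means of 3.01 and 4.22, NOTCH2 over NOTCH1 has means of -0.72 and 0.05, and the HES1 over HEY1 points overlap.

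The targets did not move together. HES1, a basic helix-loop-helix repressor and the best known direct target of Notch, is on chromosome 3 (194136145 to 194138732, plus strand). It measured 18.5, 18.8 and 22.1 FPKM in Hep3B-Con and 13.3, 14.6 and 12.4 in Hep3B-KD. All controls exceeded all knockdown libraries, with Hep3B-Con replicate 3 the highest. The fitted log2 fold change was -0.55 (SE 0.0857, adjusted p = 0.00143), and the Hep3B-Con mean of 19.8 ± 1.98 was 1.47 times the Hep3B-KD mean of 13.5 ± 1.10 (SD, n = 3). HES1 thus fell in libraries in which NOTCH2, NOTCH3 and JAG1 rose.

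The HES1 promoter is shown because it is the classic example of Notch control, in which RBPJ binds the promoter and HES1 protein represses its own gene through N-boxes. The 250 bases before the RefSeq start site are given (GRCh38.p14, chr3:194135898-194136147, plus strand), with the RBPJ core TGGGAA and the N-box CACNAG, on either strand, in capitals.
HES1 promoter: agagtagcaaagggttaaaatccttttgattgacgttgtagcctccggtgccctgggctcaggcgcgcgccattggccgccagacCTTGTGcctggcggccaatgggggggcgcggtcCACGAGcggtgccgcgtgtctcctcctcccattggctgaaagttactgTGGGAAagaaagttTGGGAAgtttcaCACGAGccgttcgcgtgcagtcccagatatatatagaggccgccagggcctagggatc

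Counted from the start site, the RBPJ cores begin at -84 and -70 and the N-boxes at -165, -132 and -58, and another N-box lies at 16, after the start. RefSeq promoter windows of 300 bases, 250 before the start and 50 after it, were at hand for 7 of the 10 genes and not for DLL1, HEY1 and SOX9. HES1 was the only one of the 7 with an RBPJ core. Over 35116 promoters of this length 24% held the core and 3.8% held 2 or more, 38% held an N-box, and 68.7% held the E-box CANNTG. N-boxes also occurred in the windows of DLL4, NOTCH1, NOTCH2 and NOTCH3, with the pair in NOTCH1 overlapping each other, and E-boxes in that of JAG2. These matches describe letters in the windows and not binding, and the RBPJ cores of HES1 are not taken as sites bound as a pair. RBPJ sites with other letters were not searched.

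SOX9, a transcription factor of bile duct and progenitor cells that is induced by Notch in the liver, rose. It is on chromosome 17 (72121020 to 72126420, plus strand), and SOX9-AS1 on the opposite strand had 0.258 to 0.687 FPKM. SOX9 measured 47.0, 41.4 and 42.7 FPKM in Hep3B-Con and 52.1, 57.0 and 51.4 in Hep3B-KD. The groups did not overlap, and the replicates of SOX9 varied more than those of JAG1. SOX9 rose by 0.29 on the log2 scale (SE 0.0591, adjusted p = 0.00489), and 0.18 above the median of all genes. SOX9 rose beside the summed biliary markers given above, among which KRT7 fell.

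HEY1, a repressor related to HES1, was low. It is on chromosome 8 (79764010 to 79767863, minus strand). It had 0.757, 0.801 and 0.465 FPKM in Hep3B-Con, from 43, 45 and 25 reads, and 0.273, 0.328 and 0.242 in Hep3B-KD, from 14, 17 and 13 reads. The groups did not overlap, but the mean of all libraries was under the filter of 0.5 FPKM, so HEY1 was not among the genes tested. In the fit without a filter, over 29908 genes of which 27.9% passed, the log2 fold change was -1.0 (SE 0.277, adjusted p = 0.0398). Leaving out 1 library at a time moved that adjusted p to between 0.0212 and 0.12, and only the fit without Hep3B-Con replicate 3 still passed.

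Ordered by mean FPKM, the genes of the control cells ran from JAG1 through SOX9, HES1, JAG2 and NOTCH1 to NOTCH3, DLL4 and NOTCH2, with HEY1 and DLL1 last. NOTCH3, DLL4 and NOTCH2 were not separable in that order, since the ranges of neighbours overlapped. In Hep3B-KD the order was JAG1, SOX9, HES1, NOTCH2, NOTCH1, NOTCH3, JAG2, DLL4, HEY1 and DLL1, and the ranges of NOTCH2 and NOTCH1 overlapped. JAG2 thus stood above each receptor in the control cells and below each of them in Hep3B-KD. By its mean FPKM over all 6 libraries, pooled over the groups, JAG1 exceeded 96.9% of the 14221 genes tested, SOX9 94.2%, HES1 79.9%, JAG2 56.8%, NOTCH1 52.6%, NOTCH2 47.6%, NOTCH3 45.9% and DLL4 38.2%.

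The rest of the pathway was taken as 63 genes in 8 role groups, of which 62 were in the table and 50 were tested. Of these, 37 passed (74%, beside 59.9% of all genes), with 23 rising and 14 falling, and the median of the 50 was 0.12 on the log2 scale. The direction depends on scaling for some: after median centring 16 were higher and 19 lower, and after quantile normalization 21 and 17. By role group, the share that passed in the reported fit ran from 50% of 2 other ligands tested to 100% of 7 cleavage genes tested.

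**Figure D3:**
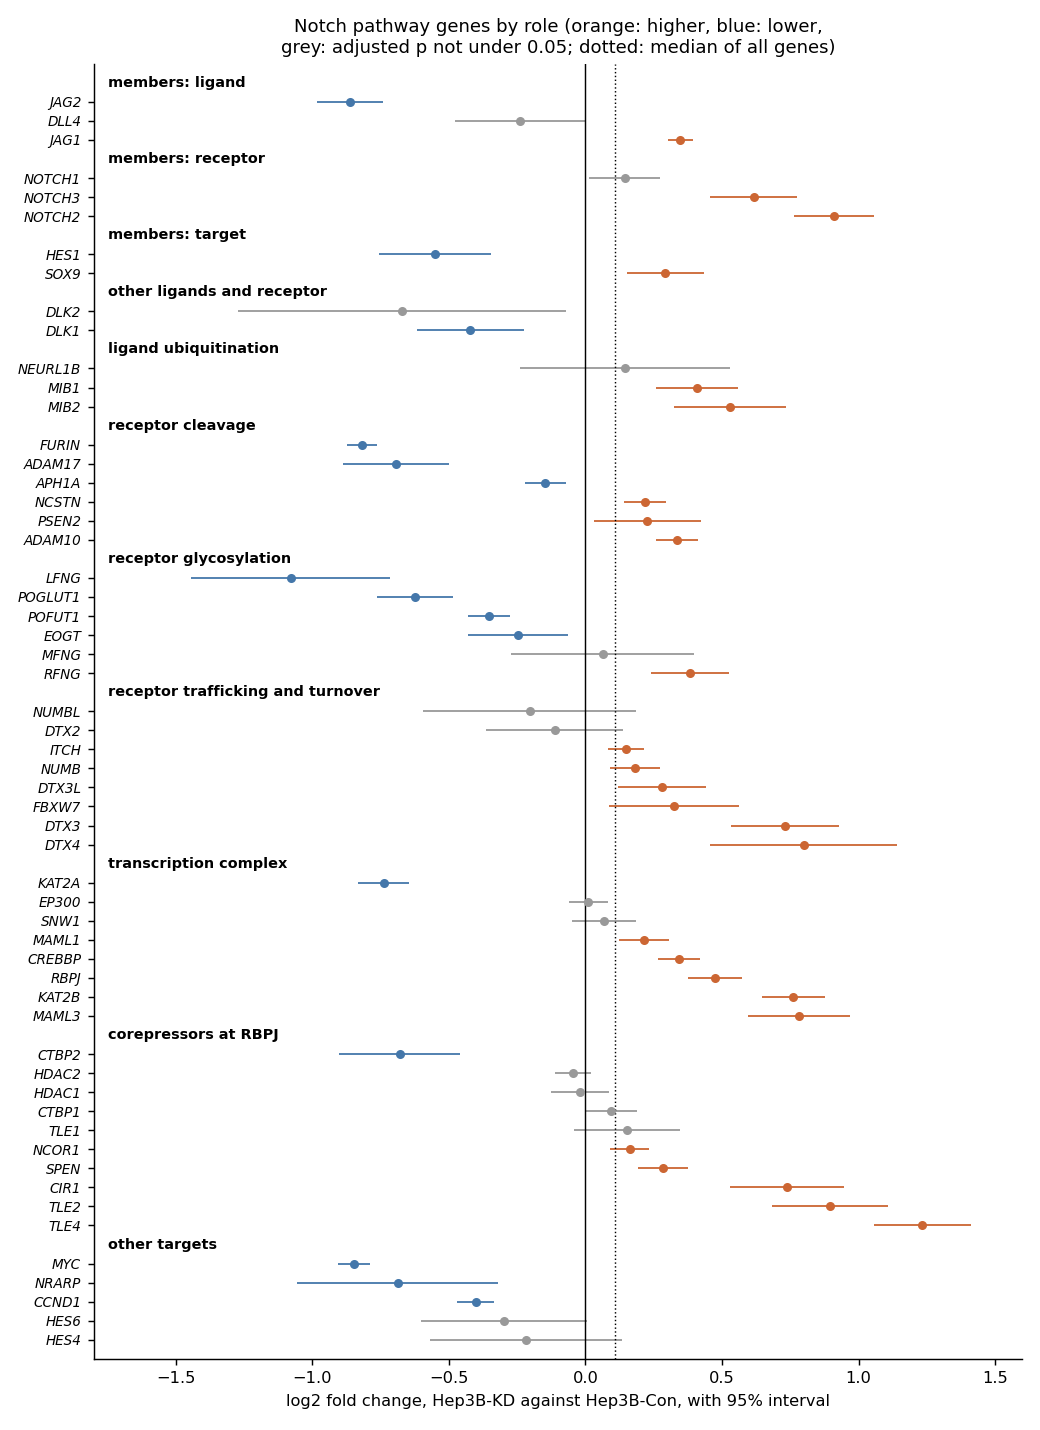
Log2 fold change, Hep3B-KD against Hep3B-Con, with its 95% interval (x axis) for the 8 tested ligands, receptors and targets (members) and other tested pathway genes, grouped by role (y axis). Orange is higher and blue lower at an adjusted p under 0.05, grey did not pass, and the dotted line is the median of all genes, 0.109; glycosylation enzymes lie mostly to the left and trafficking genes mostly to the right.

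On the side of the receptor's sugars, the balance was downward. Of 6 glycosylation enzymes tested 4 fell and RFNG rose, with the same counts under each of the 3 other scalings. Over all genes tested, 23.8% were lower and 36.1% higher in the reported fit. LFNG, the Lunatic fringe enzyme that extends O-fucose on Notch and changes which ligands it answers to, measured 1.80, 1.83 and 1.79 FPKM in Hep3B-Con and 0.646, 0.838 and 0.952 in Hep3B-KD. Its replicates were tight in the controls and wider in Hep3B-KD, and its log2 fold change was -1.08 (SE 0.152, adjusted p = 0.000883). POFUT1, which adds that fucose, fell by 0.35 on the log2 scale, and POGLUT1, which adds O-glucose, fell by 0.62. Both hold a match to the hairpin seed, as given above. For EOGT the fall of 0.25 (adjusted p = 0.0275) was lost in 4 of the 6 fits that left out 1 library.

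Receptor cleavage split by enzyme. FURIN, which cuts the Notch precursor on its way to the surface, measured 204, 203 and 206 FPKM in Hep3B-Con and 117, 112 and 119 in Hep3B-KD, a log2 fold change of -0.82 (SE 0.023, adjusted p = 9.08e-07). ADAM10, the main protease of ligand-induced cleavage, rose from a mean of 12.8 to 16.1 FPKM (log2 fold change 0.34, adjusted p = 0.000138), and the related ADAM17 fell from 3.89 to 2.37 FPKM (-0.70, adjusted p = 0.000354). These 3 changes passed in all 16 alternatives. In all, 7 of 7 tested cleavage genes passed, 4 higher and 3 lower, beside 59.9% of all genes tested. After median centring 5 passed, beside 58.9% of all genes, and after quantile normalization 4, beside 57.5%.

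Genes of receptor trafficking and turnover and of ligand ubiquitination rose where they passed in the reported fit. Of 8 trafficking genes tested 6 rose (75%, beside 36.1% of all genes tested), among them the Deltex genes DTX3 (0.73) and DTX4 (0.80). After median centring 2 rose, and after quantile normalization 3 rose and 2 fell. NUMB, an inhibitor that sends Notch to endosomes, had 0.18 (adjusted p = 0.00573), and did not pass after median centring or quantile normalization. Of the ubiquitin ligases that activate ligands by endocytosis, MIB1 rose by 0.41 and MIB2 by 0.53 on the log2 scale, under each scaling.

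In the nuclear complex, RBPJ, the DNA-binding partner of the Notch intracellular domain, had 13.6, 13.9 and 13.1 FPKM in Hep3B-Con and 19.5, 17.9 and 18.9 in Hep3B-KD. The groups were clearly apart, with a log2 fold change of 0.47 (SE 0.0416, adjusted p = 9.32e-05). The coactivator MAML1 had 0.21 (adjusted p = 0.00257), and MAML3 rose by 0.78. The acetyltransferases KAT2A and KAT2B moved apart, KAT2A from 29.7 to 17.8 FPKM (-0.74) and KAT2B from 4.82 to 8.23 (0.76). Of 8 genes of the complex tested, 5 rose and 1 fell, which is 75% that passed, beside 59.9% of all genes tested. After median centring 5 rose and 2 fell, and after quantile normalization 6 and 1.

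Among corepressors that RBPJ can recruit, 5 of 11 tested rose and 2 fell, CTBP2 among them. The share that passed was 63.6%, near the 59.9% of all genes tested. After median centring 4 rose and 4 fell, whereas after quantile normalization 7 rose and 2 fell. TLE4, a Groucho family corepressor that also partners HES proteins, measured 1.6, 1.73 and 1.57 FPKM in Hep3B-Con and 4.07, 3.72 and 4.14 in Hep3B-KD (log2 fold change 1.23, SE 0.0744, adjusted p = 1.75e-05). TLE2 of the same family went from a mean of 1.76 to 3.37 FPKM (0.90, adjusted p = 0.000161). The abundant TLE1 did not pass, at 0.15 (adjusted p = 0.153). TLE4 and LFNG were the 2 pathway genes that passed with a fold change of at least 2.

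Of 10 other Notch targets on the list 5 were tested, and the 3 that passed were lower. These are 60% of those tested, near the 59.9% of all genes tested that passed in either direction. NRARP, a feedback inhibitor induced by Notch in many tissues, had 4.63, 4.65 and 4.68 FPKM in Hep3B-Con and 3.35, 2.18 and 3.17 in Hep3B-KD (log2 fold change -0.69, SE 0.153, adjusted p = 0.00747). Its Hep3B-KD libraries were spread out, with replicate 2 the lowest, and all lay below the controls. MYC, which many pathways besides Notch control, went from a mean of 95.5 to 53.0 FPKM (-0.85, adjusted p = 1.05e-06) and CCND1, the gene of cyclin D1, from 55.8 to 42.2 FPKM (-0.40, adjusted p = 3.49e-05). HES4 (-0.22, adjusted p = 0.24) and HES6 (-0.30, adjusted p = 0.0825) did not pass. HES2, under the filter, had 9 to 19 reads in the Hep3B-Con libraries and 0 to 1 in the Hep3B-KD libraries.

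The other ligands and the fourth receptor were low, though the mean FPKM of DLK1 in Hep3B-Con lay above those of DLL4, NOTCH2 and NOTCH3. DLK1, an atypical ligand of fetal liver, fell from 4.04 to 2.995 FPKM (-0.42, adjusted p = 0.00391). NOTCH4 had 6 to 8 reads in Hep3B-Con and 2 to 6 in Hep3B-KD. DLL3 was at 0 to 1 and 1 to 6 reads.

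**Figure D4:**
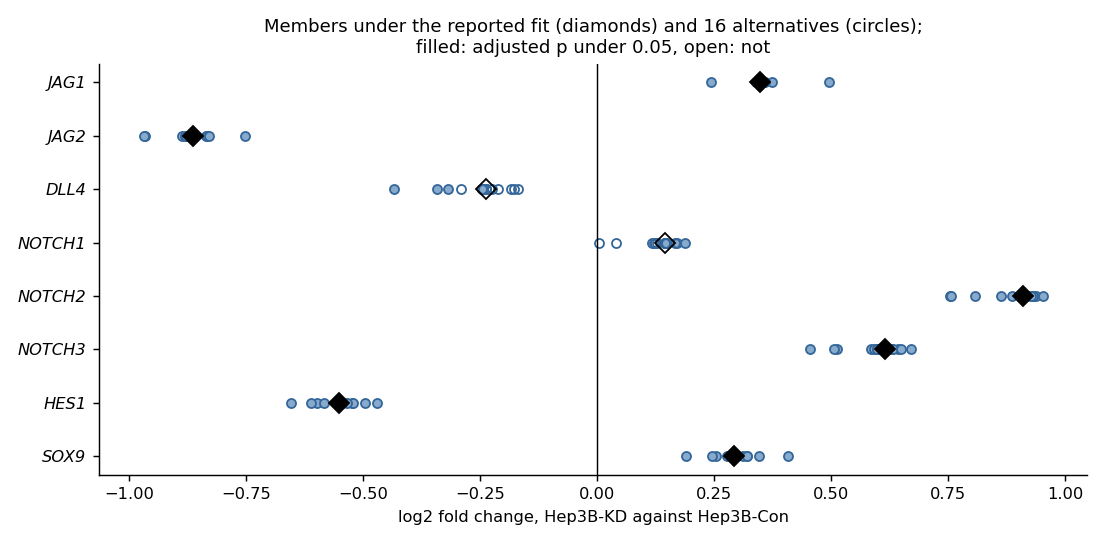
Log2 fold change of the 8 tested genes, Hep3B-KD against Hep3B-Con (x axis), in the reported fit (diamonds) and in 16 alternative fits (circles), filled where the adjusted p was under 0.05. JAG1, JAG2, NOTCH2, NOTCH3, HES1 and SOX9 are filled throughout and stay on one side of 0, while DLL4 passed in 4 alternatives and NOTCH1 in 3.

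The 6 calls held in each of 16 alternative fits, which changed the filter, pseudocount, scaling, test, block or set of libraries. Over these fits the log2 fold change ranged from 0.24 to 0.49 for JAG1, from -0.97 to -0.75 for JAG2 and from 0.75 to 0.95 for NOTCH2. It ranged from 0.46 to 0.67 for NOTCH3, from -0.65 to -0.47 for HES1 and from 0.19 to 0.41 for SOX9.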

How the data were processed

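Messenger RNA of 3 Hep3B-Con and 3 Hep3B-KD samples had been sequenced, grouped here by the hairpin and replicate that the labels name. The series describes them as biological replicates, and p-values measure the spread between these samples. The authors deposited FPKM values for 29908 Ensembl genes. The submitters' processing notes name Bowtie2 2.0.6, TopHat2 2.0.12 and build GRCh37, whereas all identifiers and exon lengths matched GENCODE release 29 (GRCh38). The counting tool and its strand setting are not given in the sources used here, so reads of overlapping genes cannot be told apart. The medium is DMEM in the labels and MEM-alpha in the paper.

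Reads were recovered as FPKM times exon length and library total, and 100% of the values were whole. Replicates of a group differed by more than counting noise (chi-square per gene 1.8 to 3.3), so none was the same library deposited again; repeat preparations of an RNA sample would not be seen this way. Floors cover counting error only, whereas the 95% intervals are limma's and rest on the spread between replicates. Rows repeating a symbol (382) stayed in the fit.

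Log2(FPKM + 0.1) was tested with limma 3.58.1 (lmFit, eBayes with trend) in R 4.3.3, without a block, with Benjamini-Hochberg adjustment over 14221 genes. The fit was also run on simulated reads in which few genes changed, each by a fold of at least 2. Smaller changes, or changes in most genes, were not simulated. Within-library ratios and shares were compared by two-sided exact permutation tests in scipy 1.17.1. The ratio of DLL1 to DLL4 was not run, since DLL1 was at the floor. Alternatives were other filters, pseudocounts, scalings, limma's voom on recovered reads, a replicate block and leaving out each library.

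The 10 genes and the lists were chosen with earlier results of these data known. Values were to be given for the 10 genes, DAGLA, listed pathway genes with an adjusted p under 0.05 and a log2 fold change of at least 0.8 in size, and RBPJ, MAML1, ADAM10, NUMB, LFNG and NOTCH4. Values of some listed genes are not reported here. The other pathway genes printed with values, such as NRARP, ADAM17, HES2 and KAT2A, were chosen after their values had been seen. Sites and promoters were read from GENCODE and RefSeq sequences. Figures were drawn with matplotlib 3.10.9.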

Additional observations from a re-analysis of the deposited data

How the results depend on the processing

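Of 225 values from alternatives, 211 were classed as the same as in the reported fit. For fold changes this meant the same direction and side of the threshold. For ratios of paralogs it meant the same direction only, and for counts of genes that passed it meant a count of similar size. DLL4 passed after median centring (-0.34, adjusted p = 0.0236), after quantile normalization (-0.43, adjusted p = 0.0101) and with voom on recovered reads (-0.25, adjusted p = 0.038), and ranged from -0.32 to -0.17 with 1 library left out. NOTCH1 passed with TPM scaling (0.17, adjusted p = 0.0379) and with voom (0.15, adjusted p = 0.0154), and ranged from 0.12 to 0.19 with 1 library left out. For both, the fit without Hep3B-KD replicate 2 was the only one of these to pass. The log2 ratio of HES1 over HEY1 reversed with a pseudocount of 1, from 0.45 to -0.14, where the larger pseudocount weighs on the low HEY1 values.

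The fits of HEY1 without a filter were chosen after seeing the data. With the replicate block its log2 fold change stayed at -1.0 with an adjusted p of 0.0646, and it ranged from -1.21 to -0.87 with 1 library left out. The cause of the changes in DLL4, NOTCH1 and HEY1 was not tested.

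No shared deviation of same-numbered libraries was seen: the correlations of their deviations were -0.013, -0.066 and -0.001. With 3 libraries per group, this cannot show whether same-numbered samples were prepared together. With the replicate block 7919 genes passed in place of 8521, and no call among the 8 tested genes changed. Voom called 8975 genes. The number of these 8 that passed ran from 6 to 8 and that of other pathway genes from 34 to 41. Depth limits DLL1, HEY1 and other genes with few reads.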
